A study of Mus musculus with 2 samples.

Results

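Here, 10 of the 32285 genes in single-cell count matrices of the embryonic mouse cortex were examined: *Sox1*, *Sox2*, *Sox3*, *Sox4*, *Sox6*, *Sox8*, *Sox9*, *Sox11*, *Sox12* and *Sox21*. They were taken by their gene symbols, each matched 1 row of the feature list, and all 10 passed the filter on low counts in every comparison. The other 10 Sox genes in the list were used only for contrast. The data consist of 2 samples of 1 group, numbered replicates 1 and 3, from mouse embryos at embryonic day (E) 14.5. Both are labelled WT and came from the control animals of a line called EomesMllt3, and the study's methods give C57BL/6J mice. The dorsal telencephalon was dissected, dissociated and run on the 10x Genomics 3' platform. In this platform each captured RNA molecule carries a unique molecular identifier (UMI). The labels do not say which transgenes, if any, the controls carried, and do not say that the samples were separate animals. The study's methods count embryos over all its E14.5 single-cell data but do not assign them to these samples, so the p-values measure only the spread between these 2 libraries. The study used these cells to ask how migrating interneurons signal to cortical progenitors.

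Sox proteins share an HMG box, a DNA-binding domain related to that of SRY, and bind short sites close to ACAAAG or ACAATG, usually beside a partner factor. SOX1, SOX2 and SOX3 form the SOXB1 group, which keeps neural progenitors undifferentiated. SOX21 belongs to SOXB2 and acts as a repressor that opposes SOXB1. SOX4, SOX11 and SOX12 form the SOXC group, which activates neuronal genes as progenitors differentiate. SOX8 and SOX9 (SOXE) serve radial glia and later gliogenesis. SOX6 (SOXD) has no activation domain of its own, and is known in cortical progenitors and in interneurons from the medial ganglionic eminence (MGE).

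Replicate 1 held 6163 barcodes and 64182006 UMIs, and replicate 3 held 8870 barcodes and 93295807 UMIs. After filters on UMIs and mitochondrial RNA and removal of predicted doublets, 5149 and 6854 cells remained, with 14 cell barcodes found in both libraries. Sox genes were kept out of clustering and of the marker lists. Of 26 clusters, those named gave 745 and 1678 radial glia (RGC)-like cells, 775 and 1453 intermediate progenitor (IPC)-like cells, 2145 and 2602 projection neuron (PN)-like cells and 335 and 221 MGE interneuron (MGE-IN)-like cells in replicates 1 and 3. All 4 RGC-like clusters had 10 of 10 radial glia markers on. The largest of them, 876 cells, also had 6 of 8 IPC markers on, and no fit was made without it. The MGE-IN-like cells had 6 of 6 of theirs on, but their median UMI counts of 4528 and 4056 per cell were far under the 12605 and 11769.5 of RGC-like cells. The largest IPC-like cluster, 986 cells, carried more projection neuron markers (3, *Slc17a6*, *Unc5d* and *Neurod1*) than IPC markers (2, *Mfap4* and *Eomes*) among its top 10 genes, so the comparisons were also fitted without it, and IPC-like values that moved are given beside the rest. The LGE-like cells, named for the lateral ganglionic eminence, were led by *Adarb2*, a marker of caudal interneurons, had 4 of 5 such markers on beside 6 of 7 LGE markers, and were very unequal between libraries (382 and 27 cells). They were therefore described and not tested. Levels are given in CPM, counts per 1000000, the UMIs of a gene as a share of all UMIs summed over the cells of a class in 1 library. CPM from 3' counts were compared between cells for 1 gene, never between genes.

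Most members are compact genes. *Sox2* (chr3:34649995-34652461, mm10, which is GRCm38) lies within the long noncoding transcript *Sox2ot* (chr3:34560381-34677993), and *Sox1* (chr8:12395519-12399555) within *Sox1ot* (chr8:12385771-12436732). Where the counting cannot place a read in the shared span, reads of the pairs may be left out or divided. *Sox21* (chr14:118233233-118237030) overlaps *Gm4675*. *Sox3* is on chrX:60891366-60893430, *Sox4* on chr13:28948919-28953699, *Sox11* on chr12:27334268-27342718 and *Sox12* on chr2:152393611-152398046. *Sox8* is on chr17:25565893-25570686 and *Sox9* on chr11:112782210-112787757. *Sox6* (chr7:115470872-116040776) spans 569.905 kb and contains *Sox6os*. It therefore has far more intronic sequence, and whether intronic reads were counted was not given in the sources used here.

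RefSeq promoter entries were found for 8 of the 10 members, all but *Sox3* and *Sox9*. The 250 bases before the start site are shown for a pair of genes with their highest levels in radial glia (*Sox2*, *Sox21*) and a pair with higher levels in neurons than in radial glia (*Sox4*, *Sox11*). Capitals mark matches, on either strand, to the Sox site letters ACAAAG or ACAATG, to the E-box CANNTG read by proneural factors, and to CCAAT, a promoter box.
Sox2: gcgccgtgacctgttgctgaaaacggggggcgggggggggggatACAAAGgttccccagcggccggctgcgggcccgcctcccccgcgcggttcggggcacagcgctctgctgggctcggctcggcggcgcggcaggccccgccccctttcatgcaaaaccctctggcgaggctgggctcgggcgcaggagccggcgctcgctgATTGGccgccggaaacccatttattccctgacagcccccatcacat
Sox21: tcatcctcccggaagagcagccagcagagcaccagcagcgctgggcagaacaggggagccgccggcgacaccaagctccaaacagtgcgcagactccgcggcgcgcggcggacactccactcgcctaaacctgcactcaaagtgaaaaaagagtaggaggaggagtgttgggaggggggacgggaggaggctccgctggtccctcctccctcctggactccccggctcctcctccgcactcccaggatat
Sox4: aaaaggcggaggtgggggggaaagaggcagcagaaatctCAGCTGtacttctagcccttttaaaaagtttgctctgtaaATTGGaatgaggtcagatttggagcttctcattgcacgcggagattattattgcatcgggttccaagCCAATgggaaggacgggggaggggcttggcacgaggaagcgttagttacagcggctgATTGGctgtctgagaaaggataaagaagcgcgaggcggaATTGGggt
Sox11: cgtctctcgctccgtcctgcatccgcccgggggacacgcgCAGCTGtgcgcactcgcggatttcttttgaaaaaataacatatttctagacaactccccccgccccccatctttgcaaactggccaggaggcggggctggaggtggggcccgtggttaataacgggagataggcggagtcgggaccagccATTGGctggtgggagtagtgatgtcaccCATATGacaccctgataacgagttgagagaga
They are the windows chr3:34649745-34649994 (plus strand), chr14:118237031-118237280, chr13:28953700-28953949 and chr12:27342719-27342968 (minus strand) of GRCm38.p6, printed 5' to 3' of the gene. The *Sox2* window held 1 ACAAAG, starting at position -206 from the start site, and 1 CCAAT at -46. No letters of the 4 motifs occurred in the *Sox21* window. The *Sox4* window held 4 CCAAT boxes and 1 E-box, and the *Sox11* window 2 E-boxes and 1 CCAAT. Over 32841 promoters, 16.5% held ACAAAG, 10.7% ACAATG, 66.2% an E-box and 33.9% CCAAT in a window of this length. All 4 windows were rich in CpG, with 27, 17, 11 and 17 against a median of 6 over all promoters. These matches describe letters only, and binding was not measured.

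The 10 genes fell into 4 patterns over the cortical lineage. *Sox1*, *Sox2*, *Sox3*, *Sox21*, *Sox8* and *Sox9* fell steeply from RGC-like to IPC-like to PN-like cells, *Sox6* was high in both progenitor classes and low in projection neurons, and *Sox4* and *Sox11* rose from RGC-like to IPC-like cells. *Sox12* was higher in projection neurons than in both progenitor classes. MGE-IN-like cells were unlike the projection neurons in keeping *Sox1*, *Sox2* and *Sox6*.

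**Figure D1:**
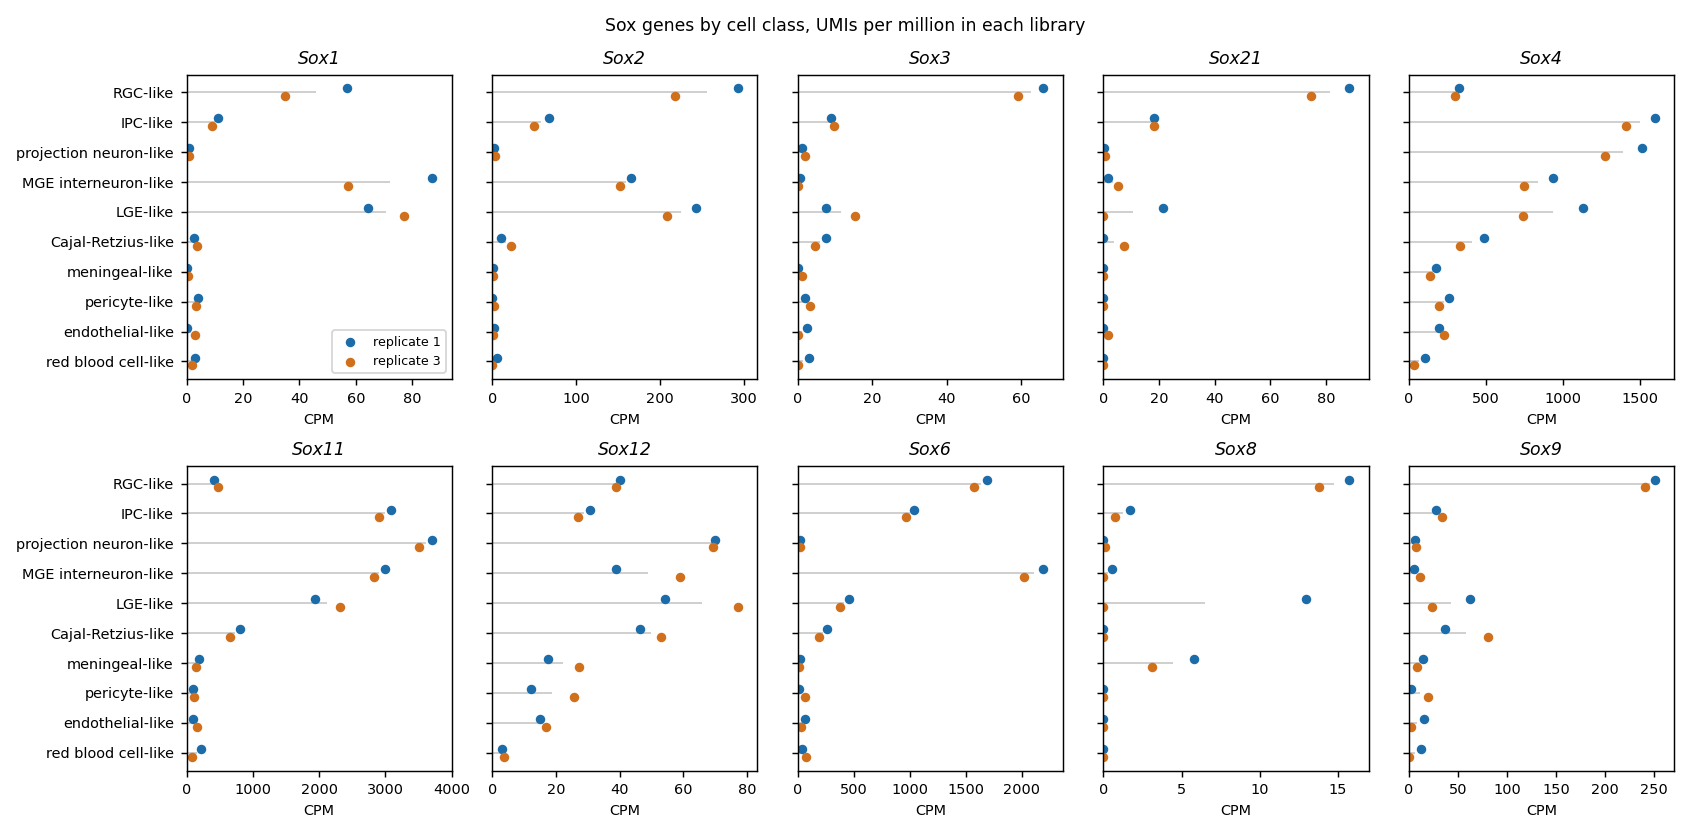
Levels of the 10 Sox genes by cell class in CPM, with 1 point per library (replicates 1 and 3). The points show the SOXB1, SOXB2 and SOXE genes highest in RGC-like cells except for Sox1, and Sox4 and Sox11 highest in IPC-like and neuronal classes.

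Of the SOXB1 genes, *Sox2*, the factor most used to mark neural stem cells, reached 292 and 218 CPM in the RGC-like class of replicates 1 and 3, while IPC-like cells were at 67.7 and 49.2 CPM. It was at 2.72 and 3.45 CPM in PN-like cells, against 6.01 and 0 CPM in red blood cell-like cells, which should lack it. The 2 libraries did not overlap between RGC-like, IPC-like and PN-like cells. The projection neuron level was under this background in replicate 1, and under the 5.74 CPM that a count of 0 allows in replicate 3. Meningeal-like cells, at 1.45 and 0.618 CPM (1 UMI in each library), give a lower background. In the order of levels, LGE-like cells (242 and 208 CPM) overlapped with RGC-like cells and MGE-IN-like cells (166 and 152 CPM) came next. *Sox1*, a close relative with the same progenitor role, was at 56.8 and 35.0 CPM in RGC-like, 11.2 and 9.13 CPM in IPC-like and 0.755 and 0.796 CPM in PN-like cells. Its highest levels were in MGE-IN-like (87.1 and 57.2 CPM) and LGE-like cells (64.2 and 77.1 CPM), which overlapped. *Sox3*, the X-linked SOXB1 gene, was nearly undetected in the MGE interneurons. It was at 66.1 and 59.2 CPM in RGC-like and 9.0 and 9.73 CPM in IPC-like cells, while MGE-IN-like cells held 1 UMI in replicate 1 and none in replicate 3. From the UMIs of both libraries the ratio of RGC-like to MGE-IN-like cells was 180 (95% interval from 32.3 to 7122, counting error only).

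*Sox21*, the SOXB2 repressor, followed the SOXB1 genes in the pallium, with 88.3 and 74.6 CPM in RGC-like, 18.1 and 18.1 CPM in IPC-like and 0.302 and 0.564 CPM in PN-like cells. In MGE-IN-like cells it had 3 and 6 UMIs in all, so here it went with *Sox3* and not with *Sox1* and *Sox2*. Red blood cell-like cells held no UMI of it, and a count of 0 there allows up to 9.02 and 5.74 CPM.

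Of the SOXE genes, *Sox9*, needed for the upkeep of neural stem cells and for the switch to glia, was at 251 and 240 CPM in the RGC-like and 27.9 and 33.2 CPM in the IPC-like class. The next class after RGC-like cells was Cajal-Retzius-like cells (36.2 and 80.6 CPM), then LGE-like (62.0 and 23.1 CPM) and IPC-like cells, and these 3 overlapped. PN-like (5.55 and 7.50 CPM) and MGE-IN-like cells (5.05 and 11.3 CPM) were lower still. Red blood cell-like cells held 12.02 CPM (4 UMIs) in replicate 1 and 0 in replicate 3, which allows up to 5.74 CPM, so both classes lay under this background in replicate 1 and above it in replicate 3. *Sox8*, its relative with partly shared roles, was low everywhere. RGC-like cells were at 15.7 and 13.8 CPM, IPC-like cells held 15 and 11 UMIs (1.73 and 0.744 CPM), and PN-like cells 0 and 3 UMIs. Outside RGC-like cells, its levels in each class lay under what a count of 0 allows in red blood cell-like cells, except in 1 library of LGE-like cells (12.9 CPM).

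*Sox6* was highest in MGE-IN-like cells (2192 and 2021 CPM), followed by RGC-like (1692 and 1569 CPM) and IPC-like cells (1035 and 962 CPM). LGE-like cells held 454 and 378 CPM and Cajal-Retzius-like cells 263 and 186 CPM. Neighbours among these 5 classes did not overlap. PN-like cells were at 20.5 and 22.3 CPM, beneath the 33.1 and 68.9 CPM of red blood cell-like cells, in which SOX6 is itself a known factor. The red blood cell-like values came from few cells, with 11 UMIs in 5 of 56 cells and 36 UMIs in 3 of 95 cells. Meningeal-like cells, at 16.0 and 7.42 CPM, give a lower background.

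Of the SOXC genes, *Sox11* was at 417 and 468 CPM in the RGC-like, 3091 and 2898 CPM in the IPC-like and 3706 and 3513 CPM in the PN-like class. MGE-IN-like cells (2987 and 2823 CPM) overlapped with IPC-like cells. *Sox4*, with which it shares targets, was at 325 and 296 CPM in RGC-like, 1597 and 1407 CPM in IPC-like and 1512 and 1272 CPM in PN-like cells, and the last 2 classes overlapped. MGE-IN-like (933 and 746 CPM) and LGE-like cells (1132 and 741 CPM) overlapped at a lower level. *Sox12*, the weakest activator of the 3, varied least. It was at 40.0 and 38.8 CPM in RGC-like, 30.6 and 27.0 CPM in IPC-like and 69.8 and 69.3 CPM in PN-like cells, with MGE-IN-like cells spread from 38.8 to 59.0 CPM. In red blood cell-like cells *Sox4* stood at 102 and 30.6 CPM and *Sox11* at 216 and 88.0 CPM. The *Sox4* UMIs (34 and 16) lay in 11 of 56 and 12 of 95 cells, and the *Sox11* UMIs (72 and 46) in 13 and 20 of them. Where these UMIs came from was not tested. Part of the counts of both genes in low classes may be background, which was not tested either. Without the IPC-like cluster led by projection neuron markers, the IPC-like class (434 and 808 cells) held *Sox2* at 103 and 74.7 CPM, *Sox6* at 1245 and 1239 CPM, *Sox11* at 2218 and 2138 CPM and *Sox12* at most 23.3 CPM. *Sox11* was then lower than in MGE-IN-like cells in both libraries, whereas *Sox4* (1432 and 1320 CPM) still overlapped with PN-like cells.

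The classes were compared to see where along the lineage each gene changed. UMIs were summed per class and library, and 15830 genes were tested with the quasi-likelihood test of edgeR, adjusted after Benjamini and Hochberg, at a threshold of 0.05. Between RGC-like and IPC-like cells 7 members were higher in RGC-like cells and 2 were lower, where 24.1% of all tested genes were higher and 23.6% lower. On the log2 scale the difference was 2.06 (SE 0.26) for *Sox1*, 2.02 (SE 0.18) for *Sox2*, 2.61 (SE 0.19) for *Sox3* and 2.05 (SE 0.17) for *Sox21*, so *Sox2* was 4.06-fold higher in RGC-like cells. The largest differences were those of *Sox8*, 3.42 (SE 0.39), and *Sox9*, 2.89 (SE 0.17), with an edgeR adjusted p of 3.88e-06 for *Sox9*. *Sox6* differed by only 0.60 (SE 0.11, adjusted p = 0.00227). *Sox4* was lower in RGC-like cells by a log2 difference of -2.38 (SE 0.16) and *Sox11* of -2.86 (SE 0.13), with edgeR adjusted p of 8.5e-06 and 1.29e-06. *Sox12* did not pass, with a log2 difference of 0.35 (SE 0.13, edgeR adjusted p = 0.0578), but it passed under 10 of 13 alternatives, at 0.0322 with the library as a block (where 27.2% of genes were higher) and at 0.00291 (log2 difference 0.87) without the IPC-like cluster led by projection neuron markers. Without that cluster the other 9 calls stood. *Sox1*, *Sox2* and *Sox21* differed by 1.57, 1.45 and 1.55, and the smallest, *Sox6*, fell to a log2 difference of 0.32 (adjusted p = 0.0474). The *Sox6* call was also lost with predicted doublets kept, at clustering resolution 0.6 and with all named classes in the fit.

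Between IPC-like and PN-like cells, 7 members were higher in IPC-like cells and 2 were lower, against 21.9% and 24.8% of all tested genes. *Sox6* showed the largest log2 difference, 5.39 (SE 0.14), although it was 3.34 where Sox and listed genes were kept for clustering and 3.53 at clustering resolution 0.6. Next came *Sox21* at 4.86 (SE 0.24), *Sox2* at 4.03 (SE 0.22) and *Sox1* at 3.35 (SE 0.33). *Sox3* differed by 2.39 (SE 0.22) and *Sox9* by 2.07 (SE 0.18), with edgeR adjusted p of 3.91e-05 and 2.3e-05. The *Sox8* difference of 2.68 (SE 0.51) rested on 26 and 3 UMIs over both libraries, a ratio of 20.9 (95% interval from 6.41 to 108), and was 3.70 in replicate 1 and 1.82 in replicate 3. It was lost in cells thinned to 3000 UMIs. *Sox12* was lower in IPC-like cells by a log2 difference of -1.42 (SE 0.13, edgeR adjusted p = 3.68e-05). For *Sox11* the difference was -0.41 (SE 0.12, edgeR adjusted p = 0.0229). The *Sox11* call was lost with library sizes alone as the scaling and with all named classes in the fit, and the difference was -0.90 without the IPC-like cluster led by projection neuron markers, where those of *Sox2*, *Sox21* and *Sox12* were 4.60, 5.33 and -1.93. *Sox4* was at -0.03 (SE 0.15, adjusted p = 0.881), so its rise was between RGC-like and IPC-like cells and no further difference was measurable.

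Over the whole lineage, from RGC-like to PN-like cells, all 10 members passed, 7 higher and 3 lower, against 29.9% and 34.6% of all tested genes. These 10 calls held under all 13 alternatives in which they were tested. *Sox21* differed by 6.91 (SE 0.23), *Sox2* by 6.06 (SE 0.23), *Sox6* by 5.99 (SE 0.14) and *Sox1* by 5.40 (SE 0.31) on the log2 scale. The *Sox6* difference was 3.80 both at clustering resolution 0.6 and with Sox and listed genes kept for clustering. *Sox3* (5.0, SE 0.21) and *Sox9* (4.96, SE 0.18) followed. PN-like levels of the SOXB1 genes and *Sox21* lay under what red blood cell-like cells held or allow in both libraries. That of *Sox9* did in replicate 1, where the red blood cell-like value came from 1 cell. The part of free RNA in the sizes of these differences was not tested. For *Sox8* the ratio was 272 (95% interval from 92.4 to 1323) from 450 and 3 UMIs. *Sox11* (-3.27, SE 0.13), *Sox4* (-2.41, SE 0.16) and *Sox12* (-1.07, SE 0.13) were lower in RGC-like cells.

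MGE-IN-like cells were compared with PN-like cells as neurons of another origin. Here 4 members were higher and 3 lower, against 13.7% and 22.6% of all tested genes. *Sox6* (log2 difference 6.41, SE 0.14), *Sox1* (6.14, SE 0.34) and *Sox2* (5.42, SE 0.23) were far higher in the interneurons, with edgeR adjusted p between 1.07e-07 and 5.86e-06, though the *Sox6* difference was 4.23 at clustering resolution 0.6. *Sox21* passed too (2.30, SE 0.57, edgeR adjusted p = 0.0129), but on 9 UMIs at background level, and its call was lost under 4 alternatives. The SOXC genes were all lower in the interneurons, with *Sox4* at -0.93 (SE 0.16), *Sox12* at -0.75 (SE 0.16) and *Sox11* at -0.52 (SE 0.12). The *Sox11* call was lost under 3 alternatives, library sizes alone, predicted doublets kept and all named classes in the fit, and that of *Sox4* under the last. *Sox3* (-1.96, SE 0.88, adjusted p = 0.117), *Sox8* (1.22, SE 1.11, adjusted p = 0.434) and *Sox9* (0.01, SE 0.37, adjusted p = 0.994) did not pass.

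Set against RGC-like cells, MGE-IN-like cells had 4 members higher and 5 lower, where 27.8% and 30.2% of all tested genes were. *Sox11* (2.76, SE 0.13) and *Sox4* (1.48, SE 0.16) were higher, as in the other neurons. *Sox1* (0.74, SE 0.26, edgeR adjusted p = 0.0367) and *Sox6* (0.41, SE 0.11, edgeR adjusted p = 0.0119) were also higher, though *Sox1* lost its call under 3 alternatives and *Sox6* under 2, while *Sox2* was lower (-0.63, SE 0.19, edgeR adjusted p = 0.0173) and lost its call under 2. *Sox3* (-6.95, SE 0.49), *Sox9* (-4.95, SE 0.26), *Sox8* (-4.88, SE 0.81) and *Sox21* (-4.61, SE 0.32) were far lower. For *Sox8* this rested on 1 UMI in the interneurons, and RGC-like cells had 42.2 times its level (95% interval from 7.54 to 1672). *Sox12* did not pass (0.31, SE 0.16, adjusted p = 0.133). Of the SOXB1 genes, *Sox1* and *Sox2* thus differed from radial glia by less than 1 log2 unit, while *Sox3*, *Sox8*, *Sox9* and *Sox21* were lower by more than 4 in the fit. The sizes varied, with *Sox21* at -5.53 in replicate 1 alone and -3.78 in replicate 3 alone, *Sox3* at -6.48 and -8.59, *Sox9* at -5.53 and -4.38 and *Sox8* at -4.42 and -6.50. Over the alternatives the smallest differences were -3.42 for *Sox8* in thinned cells and, with predicted doublets kept, -3.95 for *Sox9* and -4.53 for *Sox3*, and none of these 4 calls was lost.

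**Figure D2:**
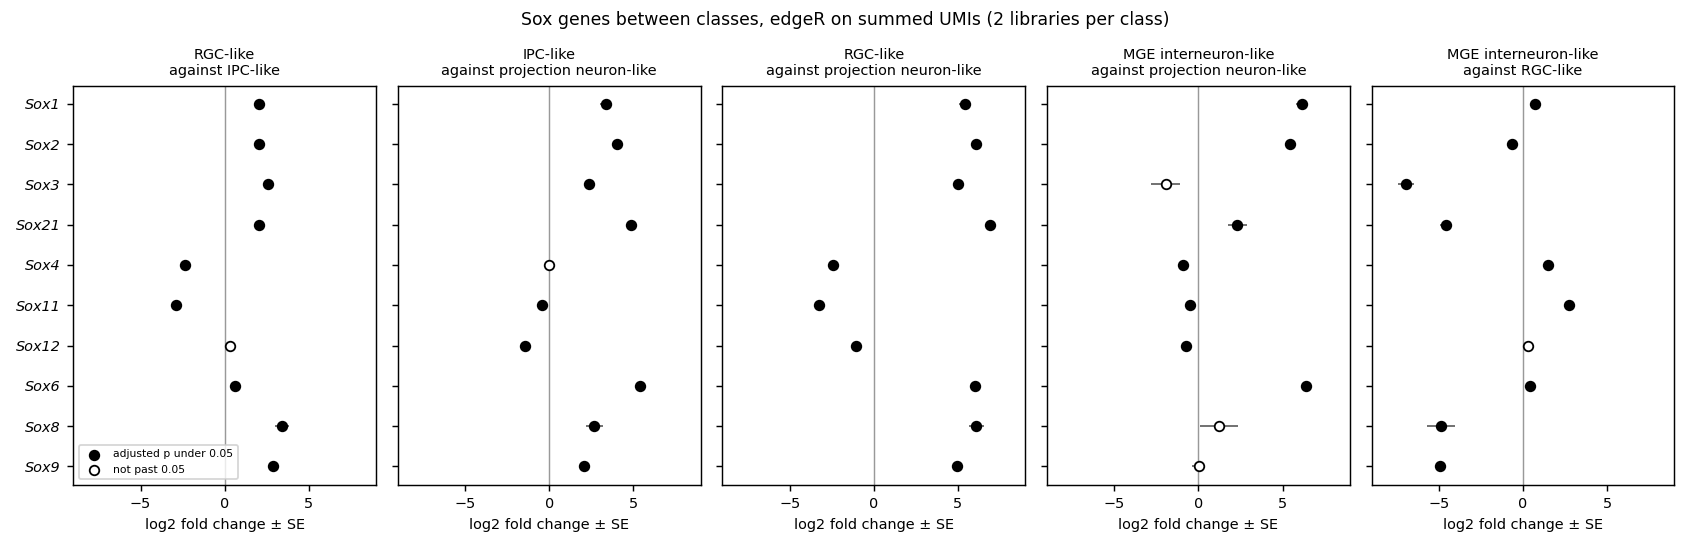
Fitted log2 fold changes of the 10 Sox genes in the comparisons between classes (edgeR, error bars are SE), with calls at an adjusted p under 0.05 set apart from the rest. Sox4 and Sox11 lie below 0 and the SOXB1, SOXB2 and SOXE genes above 0 wherever RGC-like cells come first.

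In the GABAergic cells *Sox2* and *Sox1* lie in transcripts that were themselves abundant. *Sox2ot* stood at 3843 and 2761 CPM in MGE-IN-like cells and 5052 and 7074 CPM in LGE-like cells, against 306 and 233 CPM in the RGC-like and 12.5 and 10.6 CPM in the PN-like class. *Sox1ot* was at 283 and 185 CPM in MGE-IN-like and 81.2 and 33.3 CPM in RGC-like cells. *Sox2ot* was thus higher in the interneurons than in RGC-like cells (log2 difference 3.66, edgeR adjusted p = 1.28e-05) where *Sox2* was lower. MGE-IN-like cells with a UMI of *Sox2ot* held 174 and 160 CPM of *Sox2*, and the 16 and 18 cells without one held 11.1 and 68.2 CPM (1 and 7 UMIs). For *Sox1*, cells with a UMI of *Sox1ot* held 146 and 107 CPM and cells without one 40.2 and 24.4 CPM. RGC-like cells showed a smaller gap for *Sox2*, 309 and 240 CPM with and 212 and 152 CPM without. Their *Sox1* was at 63.9 and 46.9 CPM with and 50.5 and 30.8 CPM without a UMI of *Sox1ot*. LGE-like cells of replicate 1 held 276 CPM of *Sox2* with and 13.8 CPM without *Sox2ot*, and 94.3 and 24.0 CPM of *Sox1* by *Sox1ot*. In replicate 3 their *Sox1* went the other way, 68.1 CPM with and 96.2 CPM without (6 and 4 UMIs). Whether any reads of the overlapping transcript were counted for the Sox gene was not tested, and without the reads they cannot be told apart within the shared span.

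To see whether the genes of opposite patterns met in single cells, each cell was thinned to 3000 UMIs and cells with at least 1 UMI were counted. Shallower cells were left out, 21 and 38 of the RGC-like, 5 and 45 of the IPC-like and 68 and 62 of the MGE-IN-like cells. Any SOXB1 gene was seen in 70.6% of RGC-like cells of replicate 1 (95% Wilson interval from 67.2% to 73.8%) and 58.6% of replicate 3 (from 56.2% to 61.0%). The shares were 17.1% and 16.3% in IPC-like, 1.38% and 1.71% in PN-like and 46.1% and 41.5% in MGE-IN-like cells. In red blood cell-like cells, with median UMI counts of 5303.5 and 4309 before thinning, they were 1 of 47 cells (2.13%) and 0 of 60 cells, which allows up to 5%. The projection neuron share therefore cannot be told apart from background with so few cells. The unthinned shares were 94.2% and 89.5% in RGC-like, 41.5% and 36.7% in IPC-like, 4.99% and 6.61% in PN-like and 56.1% and 48.0% in MGE-IN-like cells. All intervals and limits cover counting error only.

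SOXC genes were seen in nearly every IPC-like cell and in fewer RGC-like cells. At 3000 UMIs 85.9% and 86.7% of RGC-like cells had one, against 100% and 99.9% of IPC-like cells and 27.7% and 18.3% of red blood cell-like cells. Without thinning, these were 98.1% and 98.8%, 100% and 99.9%, and 37.5% and 28.4%. Both *Sox4* and *Sox11* were seen in 36.9% and 39.7% of RGC-like cells and in 96.1% and 95.9% of IPC-like cells. RGC-like cells with a SOXB1 gene and no SOXC gene made up 10.4% and 8.29%, and there were none among 770 and 1408 IPC-like cells, which allows up to 0.390% and 0.213%. At full depth the RGC-like shares fell to 0.805% and 0.417%, so they depend on depth. Most RGC-like cells therefore had UMIs of both groups, 60.2% and 50.3% at 3000 UMIs and 93.4% and 89.1% at full depth. Since SOXC UMIs were also found in some red blood cell-like cells, a UMI does not show that the cell made the RNA. Without the IPC-like cluster led by projection neuron markers, any SOXB1 gene was seen in 26.0% and 25.4% of IPC-like cells and *Sox4* with *Sox11* in 94.0% and 94.4%, and a SOXB1 gene without a SOXC gene in none of 430 and 772 cells, which allows up to 0.698% and 0.389%. *Sox2* and *Sox9* were seen together in 28.2% and 23.6% of RGC-like cells but in 1.17% and 1.28% of IPC-like cells (77.9% and 73.8%, and 10.1% and 8.53%, unthinned).

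**Figure D3:**
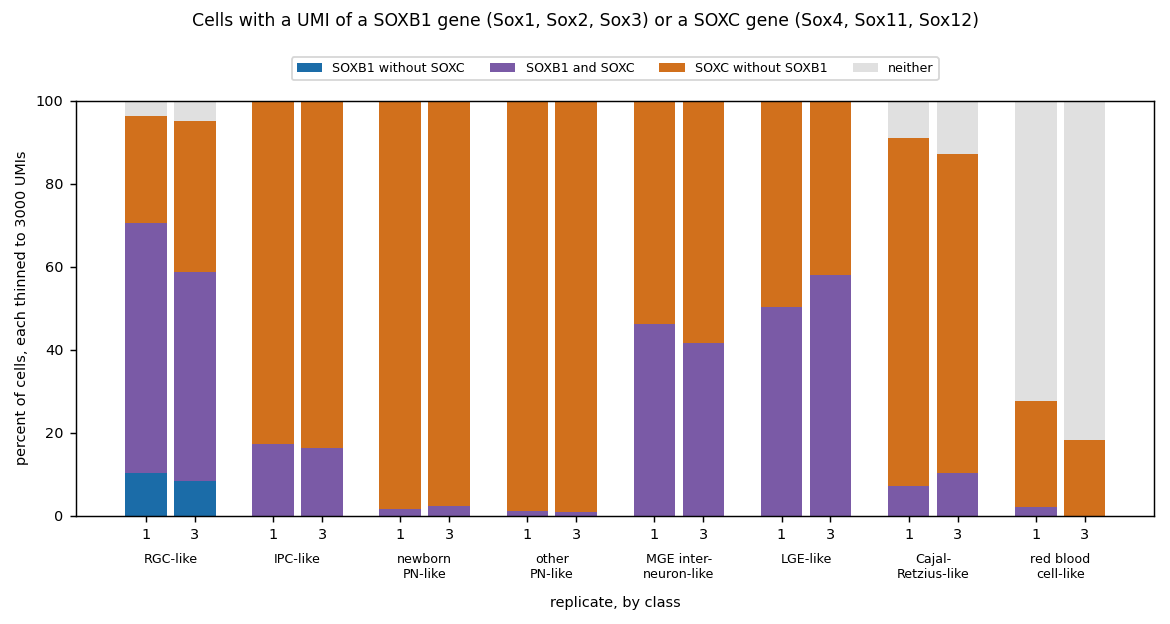
Share of cells (percent) with at least 1 UMI of a SOXB1 gene only, of a SOXC gene only, of both groups or of neither after thinning to 3000 UMIs, by class and library. A SOXC gene was seen in 100% and 99.9% of IPC-like cells, and red blood cell-like cells give the background.

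Within the classes, clusters showed where the genes shifted. These values are descriptions, since the clusters were cut from the same cells. Among IPC-like cells, the cluster led by *Neurog2* and *Gadd45g* held *Sox2* at 97.0 and 77.4 CPM, *Sox6* at 1528 and 1435 CPM and *Sox11* at 1782 and 1853 CPM. The IPC-like cluster led by projection neuron markers held *Sox2* at 19.2 and 14.3 CPM, *Sox6* at 746 and 583 CPM and *Sox11* at 4296 and 3939 CPM, so it lay between the *Neurog2* cluster and the PN-like class for *Sox2* and *Sox6*, while its *Sox11* was above the PN-like class as a whole. *Sox4* hardly differed between them, 1516 and 1381 CPM against 1825 and 1527 CPM. *Sox11* was highest in the PN-like cluster led by *Unc5d* and *Nrp1* (5511 and 5334 CPM) and was lower in the cluster led by *Hs3st4* (2993 and 2784 CPM), in which *Sox4* reached 1791 and 1612 CPM. *Sox12* was low in the *Neurog2* cluster (17.9 and 17.5 CPM) and in a small IPC-like cluster of 9 and 28 cells (8.51 and 16.9 CPM, from 1 and 6 UMIs), at 40.6 and 39.3 CPM in the IPC-like cluster led by projection neuron markers, at 43.4 and 43.4 CPM in the *Unc5d* and *Nrp1* cluster and at 77.9 and 84.6 CPM in the *Hs3st4* cluster.

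**Figure D4:**
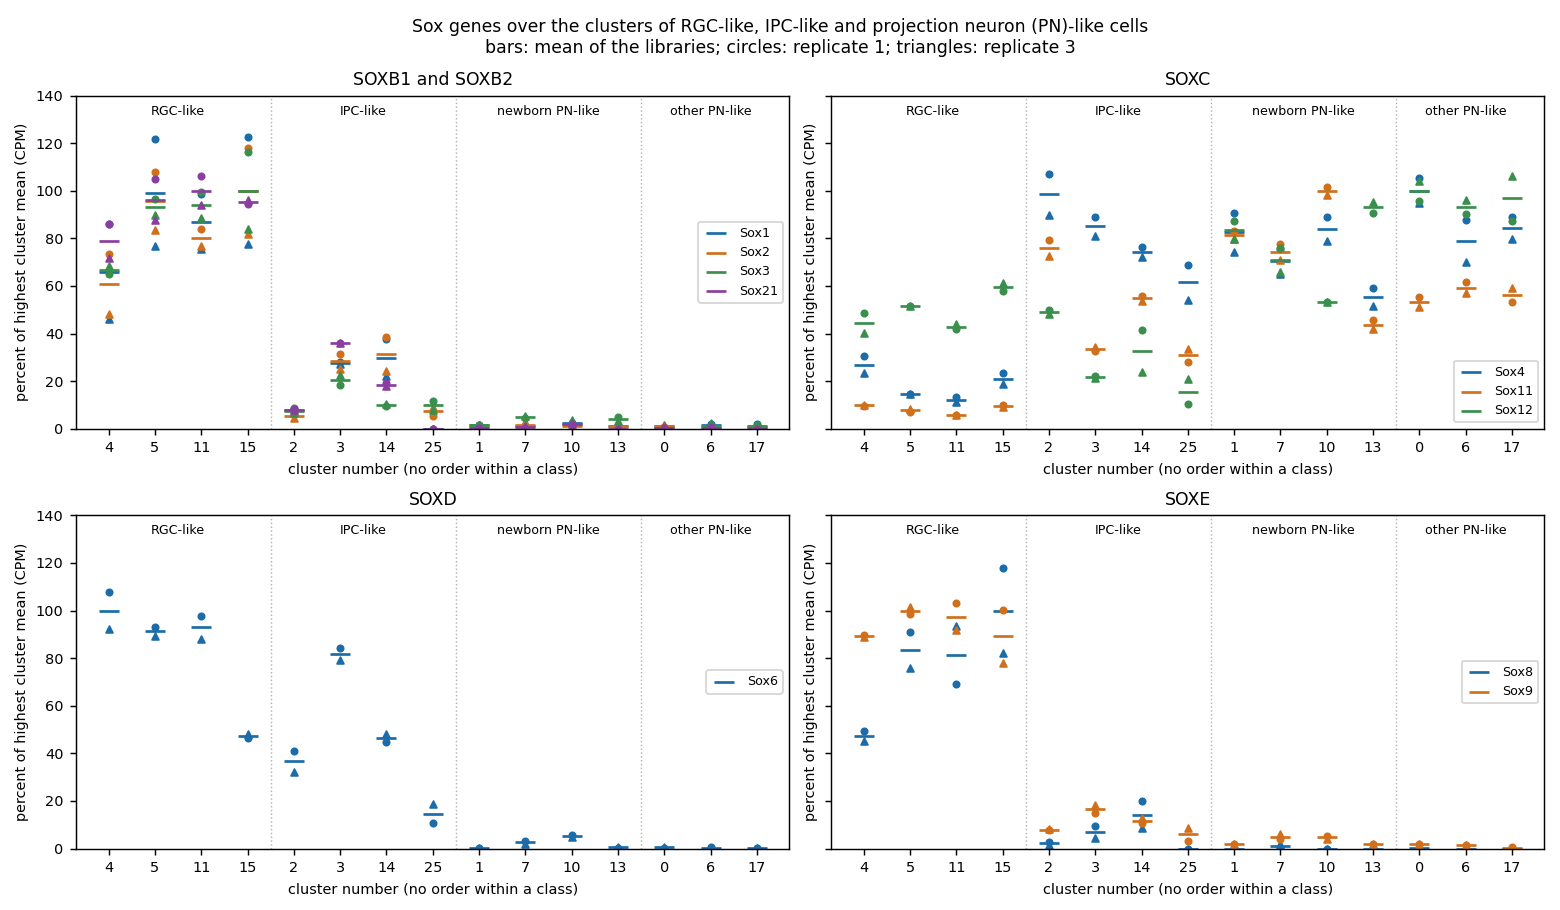
Levels of the Sox genes, in percent of each gene's highest cluster mean in CPM, in each cluster of the RGC-like, IPC-like, newborn and other PN-like classes, with 1 point per library and a bar at the mean. The clusters are not placed in a measured order of time, and Sox11 is highest in a newborn PN-like cluster.

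PN-like clusters with at least 3 newborn neuron markers on (1155 and 1514 cells) were tested against the others (990 and 1088 cells) over 16092 genes. Here 4 members were higher in the newborn group and none was lower, against 8.18% and 10.9% of all tested genes. *Sox6* stood at 33.4 and 32.4 CPM in newborn and 5.90 and 9.43 CPM in other projection neurons (log2 difference 2.03, SE 0.18, edgeR adjusted p = 6.7e-05). Among the newborn clusters it was at 105 and 89.8 CPM in the *Unc5d* and *Nrp1* cluster and 57.8 and 35.7 CPM in a second, but at 6.85 and 6.43 CPM and at 5.23 and 11.6 CPM in the remaining 2, the level of the other projection neurons. *Sox11* was at 4245 and 3973 CPM against 3091 and 2927 CPM (0.40, SE 0.12, edgeR adjusted p = 0.0423). The newborn cluster led by *Slit3* went the other way, at 2475 and 2267 CPM, under every cluster of the other projection neurons. The remaining newborn clusters lay between 3857 and 5511 CPM. *Sox9* was at 7.16 and 9.78 against 3.72 and 4.60 CPM (0.95, SE 0.21, adjusted p = 0.0117). *Sox3* had 26 and 44 UMIs against 3 and 14 (1.5, SE 0.38, adjusted p = 0.0212). *Sox3* was under the background that red blood cell-like cells allow. In newborn cells *Sox9* was under it in replicate 1, where it rests on 1 red blood cell-like cell, and above it in replicate 3. Each of the 4 calls was lost under at least 1 alternative, all of them with predicted doublets kept. The *Sox6* difference was 0.95 (adjusted p = 0.0629) with doublets kept and 4.19 with Sox genes kept for clustering, and the *Sox3* difference was 2.27 in replicate 1 alone. In the direction with no call, 1 member (*Sox12*) was lower at an unadjusted p under 0.05, and 1 by DESeq2. With the library as a block, *Sox12* (-0.39, adjusted p = 0.0218) and *Sox4* (-0.33, adjusted p = 0.0112) were lower in newborn cells (14.5% of all genes were), against 0.0572 and 0.185 without it.

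Radial glia cycle, and their phase was scored on cells thinned to 3000 UMIs with cycle genes that include no Sox gene. Of 724 and 1640 scored cells, 34.0% and 33.4% were placed in G1, 25.8% and 28.4% in S and 40.2% and 38.2% in G2M. *Sox4* was at 489 and 426 CPM in G1, 232 and 212 CPM in S and 284 and 275 CPM in G2M, the G1 values lying above all others. The log2 difference from G1 was -0.99 (SE 0.10, edgeR adjusted p = 0.00115) in S and -0.67 (SE 0.10, edgeR adjusted p = 0.00718) in G2M, of which the S call held under all 8 tested alternatives and the G2M call was lost with the stricter filter on cells. *Sox11*, at 477 and 556 CPM in G1 and 346 and 354 CPM in S, was lower in S (-0.52, SE 0.13, edgeR adjusted p = 0.0436), a call lost under 2 alternatives. *Sox3* was higher in S (0.44, SE 0.11, adjusted p = 0.0499) and G2M (0.45, SE 0.11, adjusted p = 0.0483), and *Sox8* in G2M (0.74, SE 0.18, adjusted p = 0.0473). Of 8 alternatives, the *Sox3* calls were lost under 4 in S and 3 in G2M, and that of *Sox8* under 6. So in S 1 member was higher and 2 were lower (8.1% and 3.47% of 12827 tested genes), and in G2M 2 were higher and 1 was lower (6.99% and 3.44%). *Sox2* was at 232 and 160 CPM in G1 and 348 and 261 CPM in G2M, the lowest G2M value lying above the highest of G1. With the library as a block *Sox2* was higher in S (adjusted p = 0.00157) and in G2M (adjusted p = 3.64e-07), and *Sox12* was higher in S (0.0366). *Sox1* (0.000715) and *Sox9* (0.0328) were then higher in G2M, and *Sox6* was lower in S and G2M (-0.23 in each, adjusted p = 0.0009 and 0.000833). With the block 16.6% of all genes were higher and 12.3% lower in S, and 16.2% and 13.7% in G2M. Without it these 5 did not pass, with adjusted p from 0.0811 to 0.408 in the comparisons named. How cells were assigned to phases rests on the same libraries, and the part of free RNA in these values was not tested. Among the RGC-like clusters *Sox4* also varied, at 519 and 398 CPM in the largest, which had 6 of 8 IPC markers on. It was at 251 and 252, 229 and 188, and 399 and 318 CPM in the others. The share of each cluster in each phase was not counted, so differences by phase and by cluster cannot be told apart here.

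**Figure D5:**
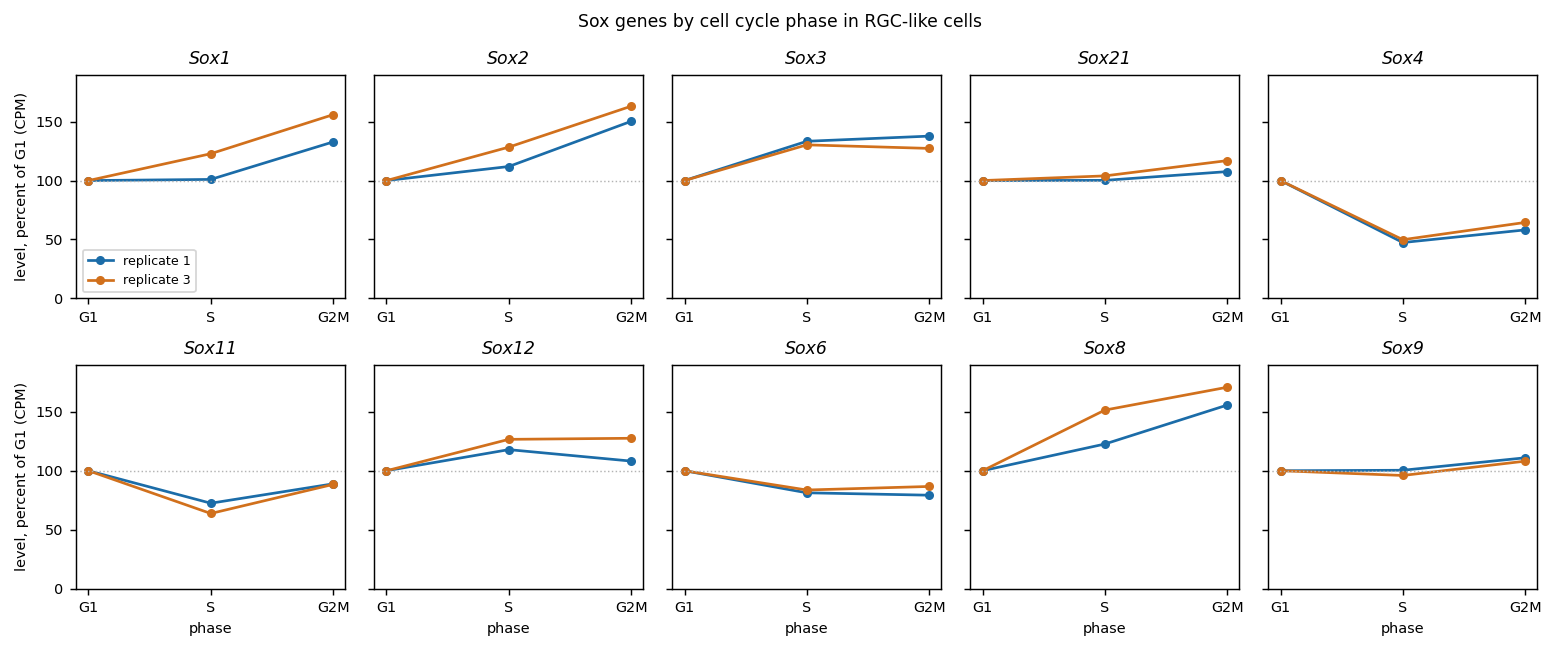
Level of each Sox gene by scored cycle phase in RGC-like cells of the 2 libraries, in percent of its own level in G1. Sox4 drops in S in both libraries, and Sox2 is higher in G2M than in G1 in both.

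Partners and targets reported for the Sox groups were counted from lists drawn up by function. Of 10 SOXB1 partners and targets, the comparison of RGC-like with IPC-like cells had 5 higher, 1 lower and 4 that did not pass, with a median log2 difference of 1.45 against 0.0014 over all genes (background shares as given above). *Nes*, which encodes an intermediate filament of neural stem cells (3.24), and *Hes5*, a Notch effector (3.20), led, and the POU factor gene *Pou3f1* was lower (-3.99). With the library as a block 6 were higher and 3 lower, against 27.2% and 26.9% of all genes. In IPC-like against PN-like cells 9 of 10 were higher (10 with the block, where 25.5% of all genes were), *Notch1* (4.67) and *Nr2e1* (4.41), a nuclear receptor of neural stem cells, most of all. For RGC-like against IPC-like cells, 3 of the 4 SOXC targets were lower, with *Dcx* (-4.83) and *Tubb3* (-3.52), genes of the neuronal cytoskeleton, furthest down. *Tead2*, an effector of Hippo signalling, did not pass there (0.13, adjusted p = 0.437) and was higher in IPC-like than in PN-like cells (3.54), where the other 3 were lower. Of the 4 genes in the SOX9 list, *Zcchc24* (2.74) and *Mmd2* (0.28, adjusted p = 0.0446) were higher in RGC-like cells, *Apcdd1* was lower (-1.34) and the partner *Nfia* did not pass. Of the proneural list, *Neurod4* (-6.47), *Neurog1* (-2.88), *Neurog2* and *Hes6* were lower there, and these 4 were higher in IPC-like than in PN-like cells. The p-values of this paragraph are edgeR's, adjusted over all genes.

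The interneurons, which held *Sox1* and *Sox2*, were compared over the same lists. Against PN-like cells, 3 of the 10 SOXB1 list genes were higher and 2 lower by edgeR's adjusted p, where 13.7% and 22.6% of all tested genes were. Against radial glia, 6 of these 10 genes were lower, 4 did not pass and none was higher by the same test, where 30.2% of all genes were lower and 27.8% higher. *Gli3* (-5.67), which represses Hedgehog targets, and *Hes5* (-4.70) were lowest. None was higher at an unadjusted p under 0.05 or by DESeq2 either, and DESeq2 called 7 lower, as did edgeR with the library as a block (30.9% of all genes were). All 4 genes of the SOX9 list were lower as well, *Zcchc24* (-3.95) and *Mmd2* (-3.86) most. Of the SOXC targets *Dcx* (5.57), *Tubb3* (3.76) and *Map2* were higher and *Tead2* (-3.29) was lower. In cycling radial glia, *Neurog2* (-2.60), *Neurog1* (-2.18) and *Hes6* of the proneural list were lower in S than in G1, and *Neurog2* and *Hes6* also in G2M (3.47% and 3.44% of all genes were lower). *Sox4* fell in the same 2 comparisons, whereas none of the 10 SOXB1, 4 SOX9 and 4 SOXC list genes passed in either by edgeR or DESeq2. At an unadjusted p under 0.05 these 3 lists had 2, 0 and 1 genes in S, and 1, 1 and 3 in G2M. With the library as a block, however, 3 SOXB1 list genes were higher and 2 lower in S and 5 were higher and 1 lower in G2M, 2 SOX9 list genes were lower in each phase, and 3 of the 4 SOXC targets (*Dcx*, *Tubb3* and *Map2*) were lower in each, by the same edgeR test. In that blocked fit 16.6% of all genes were higher and 12.3% lower in S, and 16.2% and 13.7% in G2M.

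Genes whose levels followed each member most closely were ranked by Pearson's r of log2(CPM + 1) over 20 sums (10 classes in 2 libraries, 16402 genes), as a description, since classes of 1 library share its depth and free RNA. For *Sox2* they were *Itgb8* (0.932) and *Bmper* (0.931), and for *Sox1* its overlapping *Sox1ot* (0.903), *Sox2* (0.897) and *Wnt7a* (0.894). *Sox3* was followed by *Gm19554* (0.903) and *Sox9* (0.849), and *Sox9* by *Id4* (0.879) and *Mthfd2* (0.872). *Sox21* was nearest its overlapping *Gm4675* (0.939). *Sox11* was nearest *Srrm4* (0.972), which encodes a neuronal splicing factor, and *Scrt2* (0.964), *Sox4* nearest *Kdm1a* (0.947) and *Rnf165* (0.946), and *Sox12* nearest *Srl* (0.965) and *Mfsd8* (0.959). *Sox6* was nearest *Gm45025* (0.931) and *Sox2* (0.908), and *Sox8* nearest *E130215H24Rik* (0.911).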

How the data were processed

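The files hold UMI counts for each gene in each barcode, made by the authors with Cell Ranger 7.0.0 against mm10 according to the submitters' processing notes, and used as deposited, 1 matrix per sample. The annotation release and the intron setting were not given in the sources used here. Cells needed 1500 to 60000 UMIs, less than 10% of them mitochondrial (710 and 1387 barcodes were removed), and the highest Scrublet-type doublet scores were removed at 0.8% per 1000 barcodes (304 and 629). Counts were scaled to 10000 per cell. The 2000 most variable genes, without Sox genes and the listed partner and target genes, yielded 30 components, 15 neighbours and Leiden clusters at resolution 1.0 (scanpy 1.11.5, leidenalg 0.10.2). Clusters were named from 128 markers of 18 classes, none a Sox gene. A marker was on above 0.5 of its scaled level and in at least 10% of cells, and a name needed 3 markers on. Classes and tests still come from the same cells.

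UMIs were summed per class and library and tested with edgeR 4.0.16 (quasi-likelihood test, TMM, low-count filter, prior count of 2) with Benjamini-Hochberg adjustment at 0.05. The SE was derived as |log2 fold change|/√F. DESeq2 1.42.0 was an alternative, and the steps were tested on simulated data. With 1 library left out the value has no test. Sums of 1 library come from the same sample, so replicate numbers mark true pairs. Over genes, their deviations correlated at 0.0161 to 0.250 for the class sums, 0.0167 to 0.271 with newborn neurons apart and 0.303 to 0.445 for the phase sums. The fits used no block, and blocked values are given where they change a call.

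Phases were scored from 43 S and 54 G2M genes, which were left out of the phase tests. The members and lists were chosen with earlier results of these data known. All 10 members are described in every class. Other Sox genes are named at 10 CPM or more in a class, list genes by the largest 2 log2 differences in each direction, and genes of like pattern by the highest r. Of the genes these rules select, 1 is not reported here. Positions and promoters come from RefSeq tables of GRCm38.p6. Intervals and limits (3 counts for a count of 0) cover counting error only.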

Additional observations from a re-analysis of the deposited data

How the results depend on the processing

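In the 5 comparisons between classes, 44 member calls were made and 35 held under every tested alternative. Of 1100 recomputed log2 fold changes of members, 951 kept their direction and, where tested, their side of the threshold. Values with 1 library left out have no test and counted as kept where they moved by less than the SE. In the tested settings 18 changed sign, none of them past the threshold. With all named classes in the fit, fewer genes passed: 4692 in RGC-like against IPC-like (7550 in the fit reported), 4491 in IPC-like against PN-like (7381), 3514 in MGE-IN-like against PN-like (5744) and 1429 in newborn against other PN-like cells (3068). The stricter filter on cells gave 3780 in MGE-IN-like against PN-like, 713 in S against G1 (1484) and 822 in G2M against G1 (1338). Newborn against other PN-like gave 4901 with no filter on cells, 4997 at resolution 0.6 and 4623 with Sox and listed genes kept for clustering. With no filter on low counts S gave 2427 and G2M 2265. With the replicate block S gave 3703 and G2M 3831, and the block raised the members lower in newborn cells from 0 to 2, those in S to 3 higher and 3 lower, and those in G2M to 5 higher and 2 lower. It also let *Sox12* pass between RGC-like and IPC-like cells, and changed no other member call.

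Of members, 1 was lower in IPC-like than in PN-like cells with library sizes only and with all named classes in the fit, 1 was lower in MGE-IN-like than in PN-like cells with all named classes, and 2 were higher than in RGC-like cells with doublets kept. Among newborn cells 0 were higher with doublets kept and 2 with all named classes, and 1 was lower with DESeq2, no filter on low counts, the stricter filter on cells, either other resolution and thinned cells. In S, 0 were higher with DESeq2, library sizes only and the stricter filter, and 1 was lower with the stricter filter and with doublets kept. In G2M, 1 was higher with DESeq2, doublets kept and phases scored without thinning, 0 with library sizes only and the stricter filter, and 4 with no filter on low counts, and 0 were lower with the stricter filter.

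In the tested settings signs changed as follows. *Sox4* between IPC-like and PN-like cells became 0.0096 (DESeq2) and 0.11 (library sizes only). Between MGE-IN-like and PN-like cells, *Sox3* became 0.23 with doublets kept, *Sox8* -0.58 with the stricter filter, and *Sox9* -0.046 with no filter on low counts, -0.18 with no filter on cells, -0.35 at resolution 0.6, -0.31 with Sox genes kept for clustering and -0.059 in thinned cells. In newborn cells *Sox2* became -0.22 and *Sox8* -0.20 with no filter on cells, and -0.061 and -0.14 with doublets kept. In S, *Sox9* became -0.015 with library sizes only and -0.19 with the stricter filter. In G2M, *Sox11* became 0.031 with the stricter filter and 0.067 with doublets kept, and *Sox9* -0.073 with the stricter filter. Signs also changed in values from 1 library alone. In replicate 3 alone, *Sox4* became 0.029 between IPC-like and PN-like cells and *Sox8* -0.81 between MGE-IN-like and PN-like cells. There *Sox1* also became -0.13 in newborn cells and *Sox9* -0.016 in S. In replicate 1 alone, *Sox9* became -0.33 between MGE-IN-like and PN-like cells. The cause of these changes was not tested.

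Scaling by library sizes only moved the share of called genes that were higher from 46.9% to 58.0% (IPC-like against PN-like), from 46.4% to 59.2% (RGC-like) and from 37.7% to 54.6% (MGE-IN-like), and the median log2 difference of all genes by 0.13, 0.24 and 0.20. The fit without the IPC-like cluster led by projection neuron markers was added after the data were seen, and it gave 5867 and 7857 genes past the threshold in the comparisons of IPC-like with RGC-like and PN-like cells. With 2 libraries, and 26 UMIs of *Sox8* in IPC-like cells and 9 of *Sox21* in MGE-IN-like cells, depth limits what can be said of the low genes.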

Other observations

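Other Sox genes showed patterns of their own, which the comparisons above do not use. *Sox5*, the SOXD relative of *Sox6* and a factor of deep-layer neurons, ran opposite to it, at 403 and 347 CPM in RGC-like, 809 and 793 CPM in IPC-like, 3595 and 3871 CPM in PN-like and 193 and 241 CPM in MGE-IN-like cells. It was lower in RGC-like than in PN-like cells by a log2 difference of -3.56 and in newborn than in other projection neurons by -1.30 (edgeR adjusted p = 1.41e-07 and 0.000205). *Sox13*, the last SOXD gene, was at 21.7 and 26.0 CPM in RGC-like cells against 1.85 and 1.89 CPM in IPC-like cells (log2 difference 3.47, edgeR adjusted p = 7.87e-06). The SOXF genes, known from vessels, were highest in endothelial-like cells, with *Sox7* at 92.3 and 124 CPM, *Sox17* at 155 and 138 CPM and *Sox18* at 254 and 146 CPM, from only 20 and 33 cells. Only 2 of these 10 genes, *Sox5* and *Sox13*, passed the filter on low counts.

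Among RGC-like clusters, the cluster of 291 cells led by *Cenpa* and *Cdc20*, genes of mitosis, held *Sox6* at 846 and 875 CPM. The other 3 clusters lay between 1598 and 1957 CPM. *Sox2* in that cluster stood at 363 and 252 CPM, against 226 and 148, 331 and 257, and 258 and 235 CPM in the others, so *Sox2* was not lower there. No test was made, since the clusters were cut from the same cells. An unnamed cluster with 6 of 6 cortical hem and 10 of 10 radial glia markers on, led by *Ttr* and *Rspo2* (17 and 126 cells), held *Sox2* at 317 and 159 CPM and *Sox9* at 191 and 179 CPM, with *Sox21* at 10.9 and 5.47 CPM.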
